A study of Mus musculus with 59 samples.

Results

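The Dlx homeobox genes of the mouse were followed as the islands and peaks of every list that overlap 3 windows of build mm9, 1 window for each gene pair. Dlx1 and Dlx2 were taken as chr2:71350000-71400000 (50 kb), Dlx3 and Dlx4 as chr11:94970000-95012000 (42 kb), and Dlx5 and Dlx6 as chr6:6780000-6862000 (82 kb). In all, 173 of 1107554 deposited intervals lay in a window: 123 of 408766 H3K27me3 islands, 1 of 539823 H3K27ac peaks and 49 of 158965 H3K4me3 peaks. The Dlx1/Dlx2 window held 34 of them, the Dlx3/Dlx4 window 70 and the Dlx5/Dlx6 window 69. The windows were chosen from results of these same libraries, so each test below describes them and is not independent evidence. No mm9 gene annotation was used here, so the place of a peak relative to an exon, intron or start site of these genes is not stated.

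Dlx genes encode transcription factors of the Distal-less family and lie in the genome as pairs that are transcribed toward each other and share enhancers. Dlx1, Dlx2, Dlx5 and Dlx6 are known for the making of GABAergic interneurons in the ventral forebrain. Dlx5 and Dlx6 also pattern the lower jaw and bone, Dlx3 acts in epidermis, hair, tooth and placenta, and Dlx4, its neighbour, is active in the branchial arches. H3K27me3, trimethylated lysine of histone H3, is laid down by Polycomb repressive complex 2 (PRC2) and marks silenced developmental genes. H3K27ac marks active promoters and enhancers and cannot sit on the same lysine as H3K27me3, while H3K4me3 marks promoters. Promoters that carry H3K4me3 and H3K27me3 together are termed bivalent. The K27M substitution of histone H3.3 replaces that lysine by methionine and inhibits PRC2.

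Chromatin immunoprecipitation sequencing was carried out on brainstem tumours and on neurospheres, floating cultures of neural precursor cells. All tumours were Nestin-creERT2 and LSL-PDGFRαV544ins and Trp53flox/flox, and carried either H3f3aLSL-K27M-Tag/+ (K27M tumours 1 to 6) or H3f3aLSL-WT-Tag/+ (WT tumours 7 to 11). Both genotypes thus had the mutant PDGF receptor and lost floxed Trp53 in cells where the Nestin-driven, tamoxifen-dependent Cre had acted, and whole tumour tissue was profiled. Tumours 1 to 4 and 9 came from males and the others from females, per the labels, and no age is given. Neurospheres came from e15.5 embryos with Nestin-cre and either H3f3aLSL-K27M-Tag/+ (3 hindbrain and 3 forebrain cultures) or H3f3aLSL-WT-Tag/+ (3 hindbrain cultures), all female except WT hindbrain culture 3. H3K27me3 was profiled in all 11 tumours and 9 cultures, H3K27ac in the 11 tumours, and H3K4me3 in K27M tumours 2 and 6 and WT tumours 7, 9 and 10. The labels do not say that samples of a group came from separate animals or litters, so a p-value here reflects only how these samples vary, which may be technical. Bulk profiles cannot tell a larger share of marked cells from more mark per cell.

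The H3K27me3 lists held 6905 to 42879 islands with 3208588 to 16323822 reads over 80.96 to 346.8 Mb. Island lists of K27M hindbrain cultures covered 80.96 to 97.72 Mb and those of WT hindbrain cultures 192.2 to 217.2 Mb, so the reads of a K27M culture lay on less of the genome. Spike-in chromatin was added, per the labels, but no scale factor was used here, and every H3K27me3 value below is relative to the reads in a library's own islands. Islands on chromosomes X and Y took 0.216 to 0.8524% of these reads in the libraries labelled male and 9.962 to 52.15% in those labelled female. Some values are therefore also given scaled to autosomal island reads.

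Start sites of Dlx1 and Dlx2 are shown because the 2 strongest H3K4me3 sites of their window lay about as far apart as these starts do. The RefSeq promoter table (build GRCm38.p6) held 2 of the 6 genes. Each stretch runs from 250 bases before to 50 after the start, with every CG dinucleotide in capitals. Dlx1 lies on the plus strand at chr2:71529195-71529494, and Dlx2 on the minus strand at chr2:71546705-71547004, both in GRCm38.p6 and not in mm9.
Dlx1: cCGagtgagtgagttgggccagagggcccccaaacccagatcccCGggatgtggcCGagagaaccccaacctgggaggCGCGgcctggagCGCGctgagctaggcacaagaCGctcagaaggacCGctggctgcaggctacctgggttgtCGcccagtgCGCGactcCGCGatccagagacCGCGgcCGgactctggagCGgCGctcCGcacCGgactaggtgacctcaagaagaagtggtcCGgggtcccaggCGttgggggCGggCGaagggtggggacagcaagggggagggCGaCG
Dlx2: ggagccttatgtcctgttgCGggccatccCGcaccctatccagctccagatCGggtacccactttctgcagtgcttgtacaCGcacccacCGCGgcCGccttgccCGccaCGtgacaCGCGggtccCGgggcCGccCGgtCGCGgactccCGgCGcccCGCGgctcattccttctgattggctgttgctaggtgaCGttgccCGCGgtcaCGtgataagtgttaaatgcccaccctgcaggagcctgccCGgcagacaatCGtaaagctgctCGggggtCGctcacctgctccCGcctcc
The Dlx1 stretch holds 27 CG dinucleotides and 69.3% G and C. The Dlx2 stretch holds 29 CG dinucleotides and 66.3% G and C. Of the 32851 promoters in that table, which have a median of 7, 15.52% hold at least as many as Dlx1 and 12.93% at least as many as Dlx2. The motif searched was CG, which reads the same on both strands. The 2 starts lie 17.31 kb apart.

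All 20 libraries, tumour and neurosphere, held an H3K27me3 island in each window. The main island ranked high by density within its library. In every window and library its reads per kb exceeded those of at least 96.98% of all islands, the lowest being the Dlx3/Dlx4 island of WT tumour 9. Beside the mean island density of the library, all islands of a window together were 1.374 to 3.5 times as dense in WT tumours. In K27M tumours they were 2.359 to 10.05 times as dense. At Dlx1/Dlx2 islands covered 41.6 to 45.8 kb of the 50 kb window in K27M tumours and 35.8 to 47.4 kb in WT tumours. At Dlx5/Dlx6 they covered 46.2 to 77.4 kb and 45.2 to 76.2 kb of 82 kb, respectively. At Dlx3/Dlx4 the ranges were 34.0 to 42.0 kb and 34.6 to 42.0 kb of 42 kb. The tumour genotypes thus overlapped in covered length at all 3 pairs.

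**Figure D1:**
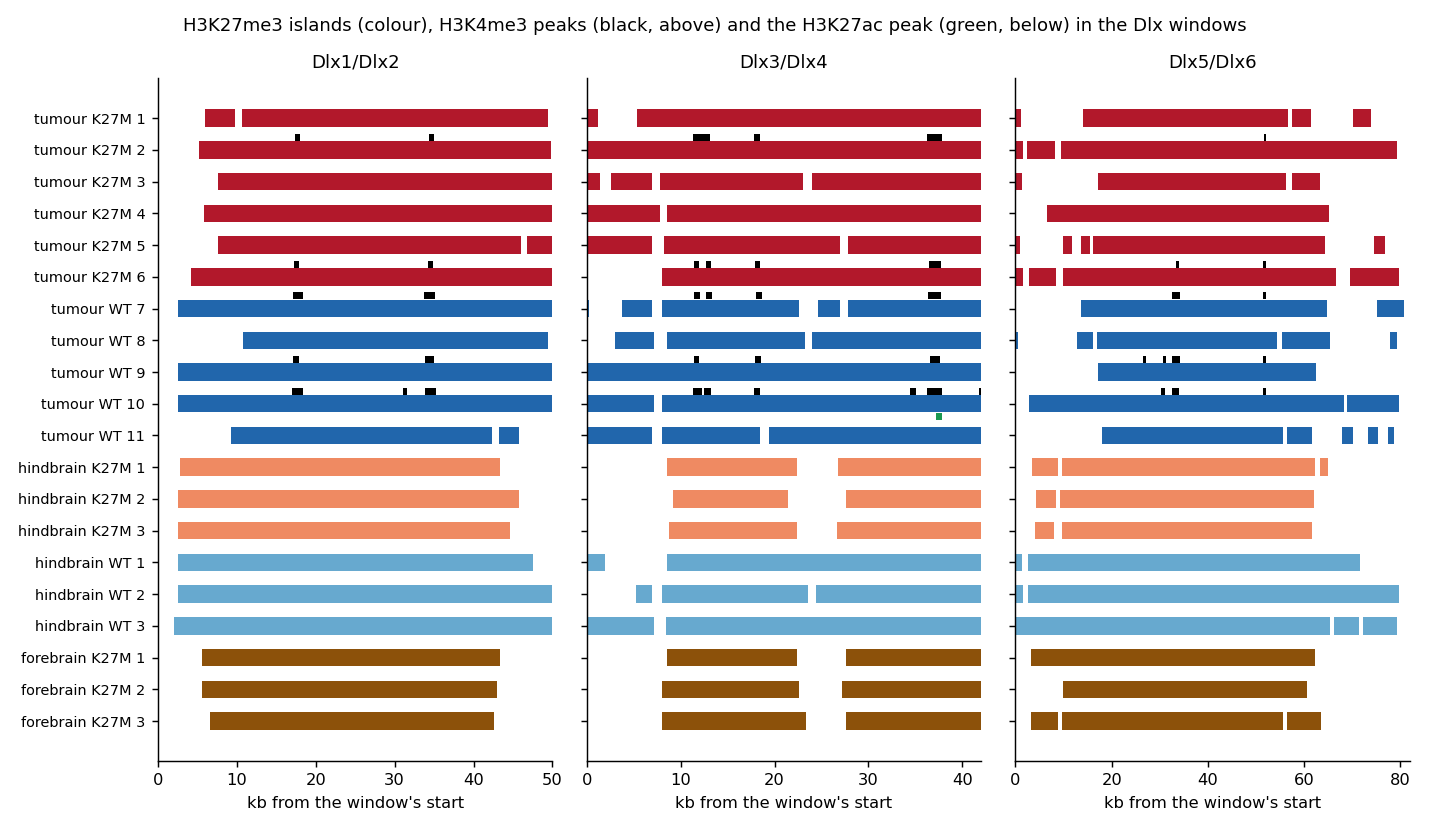
H3K27me3 islands (coloured bars), H3K4me3 peaks (black, above the bar) and the H3K27ac peak (green, below the bar) of each library, drawn by distance in kb from the start of each window and cut at its ends; rows are libraries, and H3K4me3 was profiled only in K27M tumours 2 and 6 and WT tumours 7, 9 and 10. Every library has islands in all 3 windows, and the H3K27ac peak is the only one among 11 tumours.

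In hindbrain neurospheres all 3 Dlx pairs carried more H3K27me3 reads in K27M than in WT cultures, over islands that were shorter. At Dlx1/Dlx2, the pair best known from interneuron precursors, the K27M cultures 1 to 3 had 3242, 3683 and 3149 reads per 1000000 island reads (RPM), and the WT cultures 1104, 1212 and 1558. Every K27M value lay above every WT value. The raw reads were 25364, 22349 and 23213 in K27M and 10151, 12115 and 14258 in WT cultures. Their order was the same without scaling, but raw reads also depend on depth, which island lists do not give. At Dlx5/Dlx6 the K27M cultures had 4688, 5301 and 4339 RPM and the WT cultures 1610, 1912 and 2426. This was the pair with most reads in these cells, and its main island ranked 7th to 10th by reads among all islands of a K27M culture. At Dlx3/Dlx4 the K27M cultures had 1855, 2105 and 1781 RPM and the WT cultures 783.7, 862.0 and 1129. Again the groups did not overlap. The share of all regions whose groups lie apart in this way was not counted. Scaled to autosomal island reads, the male WT culture 3 moved from highest to lowest WT culture at Dlx1/Dlx2 (1571, beside 1638 and 1748). It did so at Dlx3/Dlx4 too (1138, beside 1163 and 1243), and K27M and WT cultures stayed apart in each window.

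Covered length went the other way. Islands at Dlx1/Dlx2 covered 41.9 kb ± 1.30 (SD, n = 3) in K27M hindbrain cultures and 46.8 kb ± 1.59 (SD, n = 3) in those with WT. At Dlx5/Dlx6 they covered 57.6 kb ± 1.97 (SD, n = 3) and 75.7 kb ± 4.59 (SD, n = 3), and at Dlx3/Dlx4 28.2 kb ± 1.39 (SD, n = 3) and 37.1 kb ± 3.24 (SD, n = 3). Every K27M culture was below every WT culture in each window. Their island lists also covered less of the whole genome, at 80.96 to 97.72 Mb beside 192.2 to 217.2 Mb. That drop was larger in proportion than the drop in any of the 3 windows. The share of all regions with this order was not counted. In all 3 K27M hindbrain and all 3 K27M forebrain cultures, a gap between the 2 islands of the Dlx3/Dlx4 window split it near its middle, as it did in WT hindbrain culture 2, whereas in WT cultures 1 and 3 a single island ran across. Density followed from both: at Dlx1/Dlx2 there were 564.9 ± 54.7 reads per kb (SD, n = 3) in K27M cultures, beside 254.7 ± 34.1 (SD, n = 3) in WT cultures. Mean island density of the whole library also differed, at 74.94 to 81.08 reads per kb with K27M against 44.41 to 47.61 with WT. Relative to that mean, Dlx1/Dlx2 islands were 6.903 to 7.705 times as dense with K27M, against 5.08 to 6.137 times with WT. At Dlx5/Dlx6 this was 7.53 to 7.572 against 4.048 to 4.694, and at Dlx3/Dlx4 4.864 to 5.196 against 3.367 to 3.887. Part of the gap in reads per kb was thus library-wide, and the groups stayed apart in each window.

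Islands of a comparison were also merged where they shared 1 base, and the reads of regions marked in all its libraries were tested with edgeR's quasi-likelihood test. In hindbrain cultures 863 of 3334 regions (25.9%) rose and 946 fell in K27M at an adjusted p under 0.05, and all 3 Dlx regions marked in every library were among those that rose. Their median log2 fold was 1.86, beside -0.11 over all regions tested. The Dlx1/Dlx2 region at chr2:71352001-71401800 had a log2 fold change of 1.99 ± 0.12 (SE; adjusted p = 0.0001357 by edgeR), above 97.7% of all regions. The Dlx5/Dlx6 region at chr6:6753601-6859800 had a log2 fold change of 1.86 ± 0.13 (SE; adjusted p = 0.0001357 by edgeR). The Dlx3/Dlx4 region at chr11:94978001-95026000 had a log2 fold change of 1.68 ± 0.12 (SE; adjusted p = 0.0001419 by edgeR). A further stretch at the edge of the Dlx3/Dlx4 window, chr11:94968001-94977200, held an island in only 3 of 6 libraries and was not tested. The size of these folds rests on the scaling: without composition factors they were 1.08, 0.95 and 0.77, still past the threshold, while the median of all regions moved from -0.11 to -1.02 and 319 regions rose and 2129 fell.

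**Figure D2:**
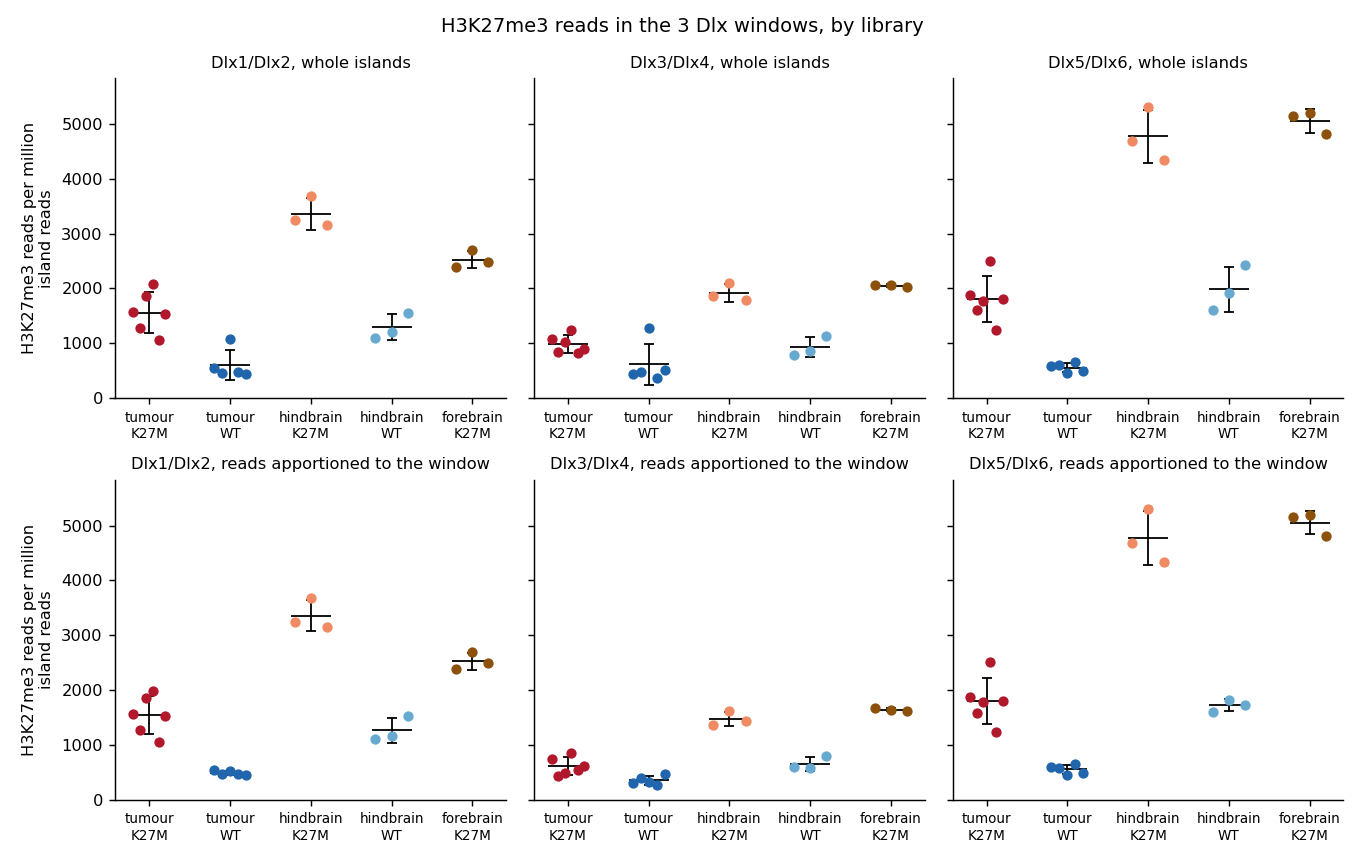
H3K27me3 RPM (reads per 1000000 island reads) in each window, by library (points), with the mean and SD of each group (horizontal line and bars); the top row counts whole islands that overlap a window, and the bottom row the share of each island inside it. K27M hindbrain cultures lie above WT hindbrain cultures in all 6 panels, and WT tumour 9 leaves the other WT tumours at Dlx1/Dlx2 and Dlx3/Dlx4 in the top row only.

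In tumours the Dlx5/Dlx6 and Dlx1/Dlx2 pairs had more H3K27me3 reads in K27M than in WT tumours, and Dlx3/Dlx4 did not pass the test. At Dlx5/Dlx6 K27M tumours had 1236 to 2505 RPM (median 1794, n = 6), and WT tumours 7 to 11 had 591.9, 598.6, 451.0, 648.8 and 489.9. The lowest K27M tumour, number 5, lay above the highest WT tumour, number 10. At Dlx1/Dlx2 K27M tumours had 1050 to 2073 (median 1554, n = 6), and the WT tumours 542.7, 464.9, 1085, 480.5 and 446.3. WT tumour 9 overlapped the lowest K27M tumour there, and its value came from an island of 97.6 kb that left the window. Each island's reads were also apportioned by the share of its length inside the window, which takes them as even along the island. WT tumour 9 then had 527.0, the WT tumours ranged from 446.3 to 533.7, and the K27M tumours from 1046 to 1983, without overlap. Island lists do not show where in an island its reads lie. Scaled to autosomal island reads, whole islands of WT tumour 9 had 1087, K27M tumour 5 had 2195, and the K27M tumours ranged from 1276 to 2374, above every WT tumour.

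At Dlx3/Dlx4 K27M tumours had 823.6 to 1246 RPM (median 960.0, n = 6) and WT tumours 445.3, 470.1, 1283, 362.4 and 514.9. In RPM WT tumour 9 stood above all K27M tumours and the other WT tumours below all of them. Scaled to autosomal island reads, WT tumour 9 (1286) lay below K27M tumours 5 (1721) and 6 (1389), and WT tumour 11 (879.2) lay above K27M tumour 2 (840.3). The single island of WT tumour 9 there was 163.0 kb long. Apportioned to the window, WT tumour 9 had 330.5, the WT tumours ranged from 268.6 to 471.1 and the K27M tumours from 435.0 to 855.2, an overlap of K27M tumour 2 with WT tumour 11.

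The fit over 3067 regions marked in all 11 tumours called 218 (7.11%) higher and 143 lower in K27M, and without composition factors 158 higher and 300 lower. The 143 became 84 without K27M tumour 1, 80 without K27M tumour 6, and 75, 85 and 86 without WT tumour 7, 8 or 9. Of the 4 Dlx regions tested, 2 were among the 218, with a median log2 fold over the 4 of 0.82 beside -0.10 for all regions. The Dlx5/Dlx6 region at chr6:6782401-6860800 had 3260 ± 448.2 reads per 1000000 reads in common regions, after composition factors (SD, n = 6) in the K27M group and 1087 ± 227.9 (SD, n = 5) in the WT group, giving a log2 fold change of 1.58 ± 0.19 (SE; adjusted p = 0.0005797 by edgeR). The Dlx1/Dlx2 region at chr2:71352601-71451400 had 3170 ± 623.3 (SD, n = 6) and 1294 ± 333.5 (SD, n = 5), giving a log2 fold change of 1.29 ± 0.21 (SE; adjusted p = 0.002509 by edgeR). In both regions every K27M tumour lay above every WT tumour. How many of the 3067 regions separate in this way was not counted. The Dlx3/Dlx4 region at chr11:94926601-95119600, 193.0 kb long and so mostly outside its window, had 2516 ± 261.2 (SD, n = 6) and 1966 ± 627.9 (SD, n = 5), giving a log2 fold change of 0.36 ± 0.21 (SE; adjusted p = 0.2775 by edgeR). Without WT tumour 11 it was 0.54 (adjusted p = 0.06891 by edgeR). WT tumours 9 and 11, at 2299 and 2911, lay within or above the K27M range of 2096 to 2818. With the 3 windows themselves in place of the merged regions, the log2 folds were 1.59 at Dlx5/Dlx6 (adjusted p = 0.0005045 by edgeR), 1.57 at Dlx1/Dlx2 (adjusted p = 0.0004711 by edgeR) and 0.68 at Dlx3/Dlx4 (adjusted p = 0.1023 by edgeR). A stretch of few reads at the edge of the Dlx5/Dlx6 window, chr6:6754801-6781600, had a log2 fold change of -0.18 ± 0.68 (SE; adjusted p = 0.8911 by edgeR).

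Sex was unevenly spread over the tumours, with 4 of 6 K27M and 1 of 5 WT tumours from males. Among females alone, the 2 K27M tumours had 1236 and 1812 RPM at Dlx5/Dlx6 and the 4 WT tumours 489.9 to 648.8. At Dlx1/Dlx2 the female values were 1050 and 1541 against 446.3 to 542.7, and at Dlx3/Dlx4 823.6 and 902.0 against 362.4 to 514.9. Scaled to autosomal island reads, the female ranges were 2582 to 2791 against 664.9 to 836.6 at Dlx5/Dlx6, 2195 to 2374 against 516.3 to 762.1 at Dlx1/Dlx2, and 1389 to 1721 against 410.8 to 879.2 at Dlx3/Dlx4. Female K27M tumours lay above female WT tumours in each window on both scales. With labelled sex as a covariate the log2 folds were 1.77 (adjusted p = 0.0006414 by edgeR), 1.23 (adjusted p = 0.005663 by edgeR) and 0.36 (adjusted p = 0.3426 by edgeR), so the calls at Dlx5/Dlx6 and Dlx1/Dlx2 held.

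**Figure D3:**
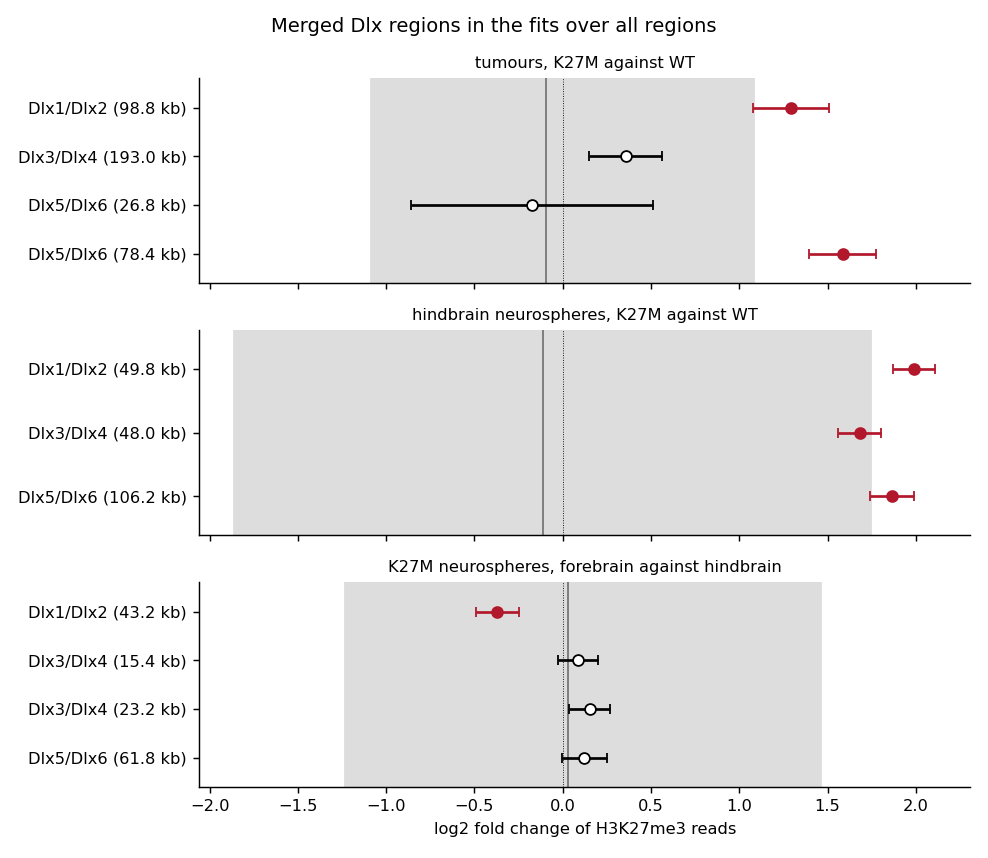
Log2 fold change of H3K27me3 reads (points) with its standard error (bars) for each merged Dlx region, with its length, in the 3 comparisons; filled red points have an edgeR adjusted p under 0.05, the grey band spans the 5th to the 95th percentile of all regions and the grey line their median. In hindbrain cultures the 3 Dlx regions lie at 1.68 to 1.99, and in tumours Dlx1/Dlx2 and Dlx5/Dlx6 lie beyond the band while Dlx3/Dlx4 lies at 0.36.

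With composition factors, the genotype difference at Dlx3/Dlx4 was smaller in tumours than in hindbrain cultures. In a single fit over the 17 tumour and hindbrain libraries, the K27M effect in tumours minus that in cultures was -0.98 on the log2 scale ± 0.27 (SE; adjusted p = 0.01467 by edgeR). Of 1624 regions in that fit, 139 (8.56%) had a smaller effect in tumours and 256 a larger one. The 139 became 91, 87 and 77 without hindbrain K27M culture 1, WT culture 2 or WT culture 3, and the 256 became 153 without hindbrain K27M culture 2. The same difference was -0.66 at Dlx1/Dlx2 ± 0.27 (SE; adjusted p = 0.08845 by edgeR) and -0.32 at Dlx5/Dlx6 ± 0.25 (SE; adjusted p = 0.3655 by edgeR). Tumours and cultures also differ in Cre driver, Trp53, the PDGF receptor, stage and culture, and these cannot be told apart. The cited Dlx3/Dlx4 value ranged from -1.22 to -0.83 without each library in turn. It was -1.10 with the window itself in place of the merged region. The edgeR adjusted p was at most 0.03827 in all of these fits. No such fit was run without composition factors. Without them, the separate fits gave Dlx3/Dlx4 log2 folds of 0.18 in tumours and 0.77 in hindbrain cultures, over regions of unlike length. At Dlx1/Dlx2 they gave 1.09 and 1.08, and at Dlx5/Dlx6 1.38 and 0.95. Whether the effect was smaller in tumours at these 2 pairs thus rests on the scaling.

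Among K27M neurospheres, forebrain and hindbrain cultures overlapped in reads at Dlx5/Dlx6 and Dlx3/Dlx4. They differed at Dlx1/Dlx2 by a value near the threshold in the main fit. This comparison shares its hindbrain K27M libraries with the comparison of genotypes above. At Dlx1/Dlx2 the forebrain cultures had 2390, 2695 and 2490 RPM, all below the 3149 to 3683 of hindbrain cultures. The region at chr2:71352601-71395800 fell by 0.37 on the log2 scale ± 0.12 (SE; adjusted p = 0.04921 by edgeR), beside a background of 535 of 3363 regions (15.9%) that were lower in forebrain. It was the only 1 of the 4 Dlx regions tested that passed, and their median log2 fold was 0.10 beside 0.03 for all regions. Unpaired like the main fit, the fits without forebrain culture 1, 2 or 3 or hindbrain culture 1 lost that call (edgeR adjusted p 0.1492, 0.08426, 0.1194 and 0.1155). With a replicate block on the experiment, which pairs the cultures by number, the call held (log2 fold -0.37, adjusted p = 0.01583 by edgeR). It also held with all libraries on autosomes alone (adjusted p = 0.004068 by edgeR) and without composition factors (adjusted p = 0.006182 by edgeR). At Dlx5/Dlx6 forebrain cultures had 5153, 5201 and 4811 RPM, inside the hindbrain range of 4339 to 5301. The region's log2 fold was 0.12 ± 0.13 (SE; adjusted p = 0.49 by edgeR). At Dlx3/Dlx4 forebrain cultures had 2062, 2065 and 2018 RPM, inside the hindbrain range of 1781 to 2105. Its 2 regions had log2 folds of 0.09 ± 0.11 (SE; adjusted p = 0.591 by edgeR) and 0.15 ± 0.12 (SE; adjusted p = 0.3493 by edgeR). The second passed without hindbrain K27M culture 2 (log2 fold 0.24, adjusted p = 0.04921 by edgeR).

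In RPM, K27M cultures had the highest and WT tumours the lowest mean level in all 3 windows. At Dlx1/Dlx2 the mean RPM values were 3358 ± 285.3 (SD, n = 3) in hindbrain K27M, 2525 ± 155.5 (SD, n = 3) in forebrain K27M, 1560 ± 373.4 (SD, n = 6) in K27M tumours, 1291 ± 237.2 (SD, n = 3) in hindbrain WT and 603.9 ± 271.4 (SD, n = 5) in WT tumours. K27M tumours and WT hindbrain cultures overlapped in RPM. At Dlx5/Dlx6 forebrain K27M led with 5055 ± 212.7 (SD, n = 3), followed by hindbrain K27M with 4776 ± 487.0 (SD, n = 3), and the 2 overlapped. WT hindbrain cultures had 1983 ± 412.6 (SD, n = 3) and K27M tumours 1803 ± 414.8 (SD, n = 6), which also overlapped, and WT tumours had 556.0 ± 82.3 (SD, n = 5). At Dlx3/Dlx4 the means were 2048 ± 26.3 (SD, n = 3) in forebrain K27M, 1914 ± 169.8 (SD, n = 3) in hindbrain K27M, 985.4 ± 163.9 (SD, n = 6) in K27M tumours, 924.9 ± 181.0 (SD, n = 3) in hindbrain WT and 615.1 ± 377.4 (SD, n = 5) in WT tumours. In whole islands only the step from K27M cultures to the rest was free of overlap there. With reads apportioned to the window, K27M tumours (613.8 ± 161.0, SD, n = 6) had a lower mean than WT hindbrain cultures (657.5 ± 126.1, SD, n = 3), with overlap, and WT hindbrain cultures (579.5 to 802.9) also lay clear of WT tumours (268.6 to 471.1). Scaled to autosomal island reads, whole islands kept K27M cultures highest and WT tumours lowest in mean in each window. Forebrain (6912 ± 93.7, SD, n = 3) and hindbrain K27M cultures (6975 ± 341.5, SD, n = 3) then changed order at Dlx5/Dlx6. With reads scaled to regions marked in all 20 libraries, K27M tumours at Dlx1/Dlx2 had 2908 to 4304. They lay clear of WT hindbrain cultures (2631 to 2897) and overlapped forebrain K27M cultures (3546 to 3992). By density beside the library mean, K27M tumours at Dlx1/Dlx2 (6.63 ± 2.06, SD, n = 6) exceeded forebrain K27M cultures (5.65 ± 0.40, SD, n = 3) in mean, with overlap.

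H3K27ac was all but missing from the Dlx windows. None of the 11 tumours, with 36284 to 61251 H3K27ac peaks each, had a peak in the Dlx1/Dlx2 or Dlx5/Dlx6 window. The only peak of the Dlx3/Dlx4 window was in WT tumour 10, at chr11:95007202-95007566, 365 bp long. Its fold enrichment in the authors' list was 3.20 and its -log10 q 4.05, above 6.12% of the peaks of that list. A single call among 11 tumours cannot reach an adjusted threshold (smallest Fisher's exact p 0.4545). The nearest peaks outside lay 43.4 to 44.0 kb to the right and 142.8 to 251.0 kb to the left of the Dlx5/Dlx6 window. To the right of the Dlx1/Dlx2 window they lay 18.9 to 225.3 kb away and to its left 14.4 to 58.3 kb. Around the Dlx3/Dlx4 window the distances were 15.0 to 66.7 kb to the left and 108.0 to 108.2 kb to the right. Of the 3067 regions that all 11 tumours marked with H3K27me3, 32.5% held no H3K27ac peak in any tumour. Among the 300 that were also at least as wide as the Dlx5/Dlx6 region and held H3K4me3 in all 5 tumours, 7.67% held none. The wide Dlx5/Dlx6 region was 1 of these, whereas the merged Dlx1/Dlx2 and Dlx3/Dlx4 regions, which leave their windows, held a peak in 5 and 9 tumours.

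H3K4me3 lay in every window of all 5 tumours profiled, in short peaks on H3K27me3 islands. All 49 peaks overlapped an island of the same tumour. Islands covered 55.12 to 100% of a window in these tumours, so such overlap was likely beforehand. Over the genome, 3226 of 20062 regions with a peak in all 5 tumours lay on an island in each. The 49 peaks fell into 14 sites, 6 of them with a peak in all 5 tumours. In the Dlx1/Dlx2 window the 2 shared sites lay 16.95 to 18.38 kb and 33.72 to 35.21 kb from its start, at chr2:71366951-71368381 and chr2:71383720-71385214. Their summits were 16.87 to 17.02 kb apart, near the 17.31 kb between the starts of Dlx1 and Dlx2 printed above. The first site covered 444 and 584 bp in K27M tumours 2 and 6, and 1253, 783 and 1398 bp in WT tumours 7, 9 and 10. The second covered 522 and 640 bp in the K27M and 1404, 1107 and 1371 bp in the WT tumours. Both sites were shorter in each K27M tumour than in any WT tumour. The strongest H3K4me3 peak of all 3 windows was at the second site in WT tumour 10, with a -log10 q of 83.5 in the authors' list, above 62.6% of that list.

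In the Dlx5/Dlx6 window a single site was shared by all 5 tumours, chr6:6831354-6832165, with 499 and 545 bp in K27M and 694, 812 and 774 bp in WT tumours. The site at chr6:6813235-6814184 had no peak in K27M tumour 2, 510 bp in K27M tumour 6, and 940, 933 and 813 bp in WT tumours. The site next to it, chr6:6812513-6813114, had a peak in the 3 WT tumours alone, with 594, 537 and 480 bp. In the whole window H3K4me3 covered 499 and 1055 bp in K27M and 2228, 2794 and 2715 bp in WT tumours. In the Dlx3/Dlx4 window H3K4me3 covered 3213 and 2448 bp in K27M and 2660, 1909 and 4435 bp in WT tumours, which overlapped. Its widest site, chr11:95006261-95007819, covered 1559 and 1101 bp in K27M and 1451, 1083 and 1512 bp in WT tumours. The other shared sites, at 11.27 and 17.82 kb from the start, covered 818 and 559 against 500, 523 and 1058 bp, and 453 and 475 against 322, 303 and 616 bp. The H3K27ac peak of WT tumour 10 lay inside that widest site.

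Of the 6 shared Dlx sites, 3 were longer in every WT than in every K27M tumour, namely both Dlx1/Dlx2 sites and the Dlx5/Dlx6 site. Over the genome this held for 1602 of 20062 regions with a peak in all 5 tumours (7.99%), and for 190 of the 3226 that lay on an island of each tumour (5.89%). The opposite order held for 12.8% and 18.6%. These lengths were compared by order alone, and the smallest p that an exact two-sided permutation test of 2 against 3 tumours can give is 0.2. H3K4me3 lists were of like size, 34291 and 31588 peaks in K27M and 28480 to 32517 in WT tumours.

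**Figure D4:**
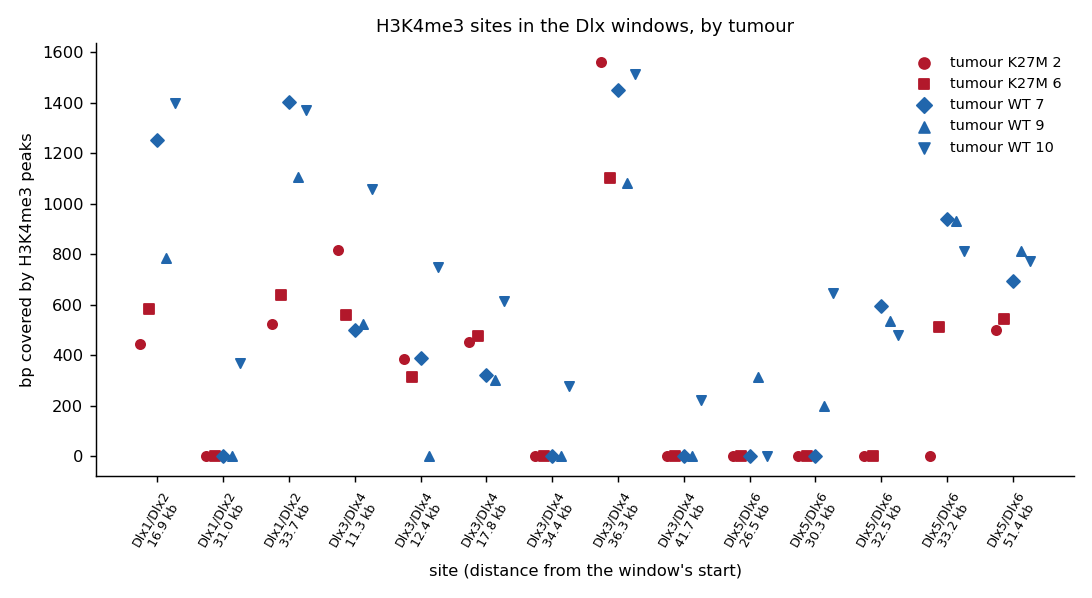
Base pairs covered by H3K4me3 peaks at each of the 14 sites in the Dlx windows, by tumour (points; 0 means no peak); sites are named by their distance from the window's start. The Dlx1/Dlx2 sites at 16.95 and 33.72 kb and the Dlx5/Dlx6 site at 51.35 kb are longer in all 3 WT tumours than in both K27M tumours, and the Dlx3/Dlx4 sites overlap.

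Across the 20 H3K27me3 libraries, 1397 merged regions held an island in each, the 3 Dlx regions among them. On log2(RPM + 1), Pearson's r between the Dlx regions was 0.91 for Dlx1/Dlx2 with Dlx5/Dlx6, 0.89 for Dlx1/Dlx2 with Dlx3/Dlx4 and 0.83 for Dlx3/Dlx4 with Dlx5/Dlx6. Other regions were more alike still. The 3 nearest to Dlx5/Dlx6 were chr17:26945801-27016400, chr1:140707801-140749600 and chr10:50594801-50652200, each with r of 0.99. Those nearest to Dlx1/Dlx2 were chr2:73093601-73121400 (r 0.98), chr17:85946401-86123600 (r 0.98) and chr6:83589401-83719000 (r 0.97). Those nearest to Dlx3/Dlx4 were chr11:95936801-96381400 (r 0.95), chr13:48743201-48889200 (r 0.95) and chr3:153927801-154015600 (r 0.94). The median r of all regions with each Dlx region was -0.15 to -0.21. These r values describe libraries that share group, depth and scaling, and no p is given.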

How the data were processed

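H3K27me3, H3K27ac and H3K4me3 were measured by chromatin immunoprecipitation sequencing in 36 samples, and 23 input samples were not analysed here. The submitters' processing notes name SICER 1.1, MACS2, BWA 0.7.12, bedtools 2.25.0, R 2.14.0, SAMtools and Picard, without saying which did what, and build mm9. H3K27me3 islands have SICER's layout, with 200 bp windows and 600 bp gaps per the file names, and the deposited value is each island's read count; 1 base was added to island ends. Peaks of H3K27ac and H3K4me3 are in narrowPeak form; as deposited by the authors' caller they hold the fold enrichment ratio, -log10 p and q-values, a score and another column, the summit offset. Each list came from 1 sample.

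The gene members, windows and alternatives were chosen with earlier results of these data known. An interval belonged to a window if it shared 1 bp with it. RPM is island reads per 1000000 island reads of a library. Island counts were summed per merged region over regions marked in every library of a comparison. They were tested by the quasi-likelihood test of edgeR 4.0.16 in R 4.3.3, with TMM factors, the composition factors named above. P-values were adjusted by Benjamini-Hochberg over all regions (threshold 0.05). A run on simulated data raised and lowered equal numbers of regions, so it cannot show how the fit handles an uneven shift. SE came from the F statistic. H3K27ac calls per region were compared with Fisher's exact test: of 14880 testable regions 0 passed and 363 had an unadjusted p under 0.05. DESeq2 1.42.0 was an alternative. The fit that compares effects between tumours and cultures, and reads apportioned to windows in the fits, were added after the values were seen. Named items were every region or site in a window, the 3 peaks of highest -log10 q per window and mark, and the 3 regions most like each Dlx region. Experiment numbers in the labels are shared between neurosphere groups. Same-numbered deviations of the 2 brain regions in K27M had correlations of 0.20, 0.24 and 0.21, higher than those of the 2 hindbrain genotypes. Each of these K27M cultures correlated best with its own number in the other brain region. No main fit used such pairs, nor did any fit without a library, and a replicate block was run as an alternative. Island lists give no total depth or background. Other steps used SciPy 1.17.1, matplotlib 3.10.9, pandas 2.3.3 and numpy 2.4.6 in Python 3.11.15.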

Additional observations from a re-analysis of the deposited data

Results flagged for a closer look

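WT tumour 9 stood apart from the other WT tumours in RPM at Dlx1/Dlx2 (1085) and Dlx3/Dlx4 (1283). Apportioned to the windows, with reads taken as even along an island, its values were 527.0 and 330.5, within the range of the other WT tumours. Without WT tumour 9, the Dlx1/Dlx2 region had a log2 fold change of 1.47 (adjusted p = 0.003597 by edgeR) and the Dlx3/Dlx4 region 0.47 (adjusted p = 0.1837 by edgeR).

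WT tumour 10 stood apart in reads per kb at Dlx1/Dlx2 (164.8) and in reads at Dlx5/Dlx6 (10591), and K27M tumour 6 in reads per kb at Dlx3/Dlx4 (261.4). These 2 libraries had the most island reads of their genotype, 16323822 and 14433881. In all, 5 of 30 sets of values examined had such a sample. The sets are related measures of the same 2 tumour genotypes in 3 windows and not independent, so the chance rate of about 1 in 20 for a single set is no yardstick for this count.

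The K27M effect at Dlx3/Dlx4 differed between tumours and hindbrain cultures by -0.98 on the log2 scale, by the test of the difference itself. That test was run with composition factors only.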

How the results depend on the processing

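Over their alternatives, the hindbrain calls at all 3 pairs and the tumour calls at Dlx1/Dlx2 and Dlx5/Dlx6 kept direction and threshold, and tumour Dlx3/Dlx4 stayed without a call. Without each library in turn, the forebrain difference at Dlx1/Dlx2 ranged from -0.45 to -0.29 and that of the second Dlx3/Dlx4 region from 0.061 to 0.24. The replicate block on the experiment number gave log2 fold changes of 1.99, 1.86 and 1.68 at Dlx1/Dlx2, Dlx5/Dlx6 and Dlx3/Dlx4 in hindbrain cultures and changed no call at a Dlx region; it called 813 regions higher in K27M hindbrain cultures, beside 863. These hindbrain cultures share only a number: correlations of same-numbered deviations were 0.10, -0.03 and 0.02, and not every culture correlated best with its own number. The edge of the Dlx5/Dlx6 window in tumours, never called, ran from -0.59 to 0.041 without each library in turn except WT tumour 10, whose omission gave no value, and was 0.032 with missing islands as 0 and 0.50 with sex. The first Dlx3/Dlx4 region of the forebrain comparison was -0.023 on autosomes alone. With composition factors, the tumour minus hindbrain effect at Dlx1/Dlx2 ranged from -0.90 to -0.52 without each library in turn. It passed without WT tumour 8 alone (-0.78, adjusted p = 0.03261 by edgeR).

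Scaled to regions marked in all 20 libraries, the log2 differences of window reads between K27M and WT hindbrain were 0.99, 0.66 and 0.88 at Dlx1/Dlx2, Dlx3/Dlx4 and Dlx5/Dlx6, against 1.39, 1.06 and 1.28 in RPM. The tumour differences were 1.02, 0.42 and 1.27 against 1.42, 0.83 and 1.68, and forebrain minus hindbrain was -0.53, -0.020 and -0.036 against -0.41, 0.10 and 0.086. Scaled to autosomal reads, forebrain minus hindbrain at Dlx3/Dlx4 was 0.0040. Whole islands turned the tumour difference in covered length at Dlx1/Dlx2 from 0.017 to -0.18. The H3K27ac peak was lost (0 peaks) with -log10 q of at least 5, with equal numbers of top-ranked peaks per list, and without WT tumour 10 (range 0 to 1 without each tumour). H3K4me3 peaks numbered 44 with -log10 q of at least 5, beside 49, and the count of shared sites longer in every WT tumour stayed 3. DESeq2 gave 339 regions higher in K27M tumours, and 295 lower, beside 218 and 143, and dropping composition factors gave 319 higher in K27M hindbrain cultures, beside 863. With missing islands as 0, over more regions, 48, 4523 and 1362 regions fell in the tumour, hindbrain and forebrain comparisons, beside 143, 946 and 535. The cause of these shifts was not tested. Depth and background are unknown from island lists.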
